A study of Mus musculus with 4 samples.

Results

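The genes described here are named for the nuclear subunits of the mitochondrial respiratory chain and ATP synthase. A gene whose product is not itself a subunit can be among them. They were taken by name, as every symbol of the RNA matrix that begins with Nduf and the letter a, b, c, s or v followed by a digit, that is Sdha to Sdhd, or that begins with Uqcr, Cox4 to Cox8 or Atp5, without pseudogenes. The rule found 84 of 27998 genes and used no measured value. By prefix, 37 belong to complex I (Nduf), 4 to complex II (Sdh), 8 to complex III (Uqcr), 18 to complex IV (Cox) and 17 to complex V (Atp5). The 13 protein genes of the mitochondrial genome (mt genes) were measured beside them.

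Complexes I to IV pass electrons from NADH and succinate to oxygen, complexes I, III and IV pump protons across the inner mitochondrial membrane, and complex V uses the proton gradient to make ATP. Some core subunits come from mitochondrial DNA and the others from the nucleus, and complex II is wholly nuclear. Mature neutrophils are known to rely mainly on glycolysis and to hold few mitochondria, and dividing cells to expand their mitochondria.

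The series holds single-cell RNA (CITE-seq, 3' tags of RNA molecules counted by unique molecular identifiers, UMIs, with antibody tags that are not used here) from sorted CD11b+ splenocytes of C57BL/6 mice at least 8 weeks old, with 1 library of steady-state mice and 1 library of mice given 3 once-daily subcutaneous injections of 10 µg GM-CSF, taken 24 hours after the last injection. The number of mice behind a library is not given in the sources used here. The steady-state library held 4827 cells and 22358903 UMIs, and the GM-CSF-treated library 6804 cells and 35007567 UMIs. Cell types are the deposited labels, among them granulocytes, neutrophils and a bundle of monocytes, macrophages and dendritic cells (MoMacDC_c1, c2, c4 and c5 and Progenitor DC), which the depositors also divided into 17 clusters (0 to 16) and into CD115hi subsets. P-I is Ly6C+ (classical monocytes), P-III is Ly6C- MHC II+ CD301b-, and P-IV is the MHC II+ CD301b+ subset that the study followed after GM-CSF. Because each condition is 1 library, GM-CSF and library cannot be told apart, no difference has a replicate check, and no test across samples is possible.

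Levels are given as CPM, the UMIs of a gene or of a list per 1000000 UMIs of all cells of a group, and comparisons as ratios of CPM. Each carries an exact 95% interval that covers counting error only. In a count of genes, a gene was compared when it had at least 100 UMIs in the 2 groups together, and called higher or lower at a ratio of at least 1.5 in either direction, with 0.5 counts added to each sum.

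A few facts of the labels touch the results. Of the deposited types, cDC2-A carried NK cell markers at 18904 CPM in steady state and 19640 CPM after GM-CSF and dendritic cell markers at 64 and 16 CPM, against its name, and is called here by its label. In steady state, MoMacDC_c4 had the same NK markers at 11630 CPM, against 0.87 CPM after GM-CSF, and bundle clusters 7 and 8 had them at 5064 and 11887 CPM, against 1.3 and 0.27 CPM. For those groups the cells compared between libraries differ in marker genes. In steady state, clusters 7 and 8 enter no comparison of clusters for that reason, but most of their cells are in MoMacDC_c4. Granulocytes and neutrophils carried their markers at 103642 to 350678 CPM. Cxcr2, the chemokine receptor of mature neutrophils, was at 1265 to 1674 CPM over 4 bins of granulocytes by UMIs per cell after GM-CSF. Over the same bins of neutrophils it was at 61.8 to 581 CPM. Camp, among the highest genes of neutrophils, was at 43.0 to 100 CPM in the former and 11942 to 40034 CPM in the latter. By Cxcr2 the granulocytes thus stand as the more mature cells, and both names are used here as deposited labels. Both libraries shared 8 cell barcodes (16 cells), whose removal moved none of the 6 main ratios of the summed level beyond its counting interval.

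All members together had 863844 UMIs, 1.51% of all UMIs, against 3.8% for the 13 mt genes. Complexes I, IV and V each gave 28.2 to 30.0% of the member UMIs, complex III 9.82% and complex II 2.21%. UMIs count molecules and not sequenced length, but capture can still differ between transcripts, so levels are compared mainly within a gene. The members with the most UMIs in their complex were Ndufa4 (339 CPM over all cells), Sdha (105 CPM), Uqcrh (576 CPM), Cox4i1 (954 CPM) and Atp5h (532 CPM). Ndufa4, named as a complex I subunit, is now placed in complex IV, and it was kept under its name here. Of the 84 members, 76 had more than 500 UMIs, 5 had 1 to 100, and 3 had none. The 3 without a UMI were Cox7b2, Cox8b and Cox8c, paralogs known from testis or muscle, and 3 counts of all UMIs would stand at 0.0523 CPM.

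The summed level of the 84 genes was lowest in granulocytes in both libraries. It was 7769 CPM (7679 to 7860) in 1929 steady-state granulocytes and 8490 CPM (8375 to 8607) in 1791 granulocytes after GM-CSF. Neutrophils came next, at 10811 CPM (10617 to 11008) in 146 cells and 10434 CPM (10344 to 10525) in 893 cells. B cells, macrophages and T cells lay between 11541 and 13625 CPM in both libraries, and their intervals overlapped in the GM-CSF-treated library. Within the bundle, MoMacDC_c5 was lowest (12632 and 13793 CPM in steady state and after GM-CSF), MoMacDC_c2 and c1 were intermediate (14892 and 16053 CPM, and 16224 and 18101 CPM), and MoMacDC_c4 was highest of all 12 types (21051 and 19161 CPM). The highest type exceeded the lowest 2.71-fold in steady state and 2.26-fold after GM-CSF.

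The 13 mt genes were ordered differently. They were also lowest in granulocytes (6525 and 8350 CPM) and neutrophils (15991 and 26834 CPM), but highest in the cells labelled Macrophage (68333 and 90622 CPM, from 25 and 22 cells) and in B cells (64352 and 80129 CPM), where the nuclear sum was moderate. The ratio of nuclear to mt UMIs thus ran from 1.19 in steady-state granulocytes (1.02 after GM-CSF) over 0.68 and 0.39 in neutrophils and 0.29 to 0.47 in the bundle, activated dendritic cells and cDC2-A to 0.15 to 0.23 in B cells, T cells and macrophages. Granulocytes were the only one of the 12 types in which UMIs of nuclear subunits outnumbered those of the mt genes, in both libraries. The upstream filter removed cells above 15% mt UMIs, which caps this measure in the types where it is high.

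**Figure D1:**
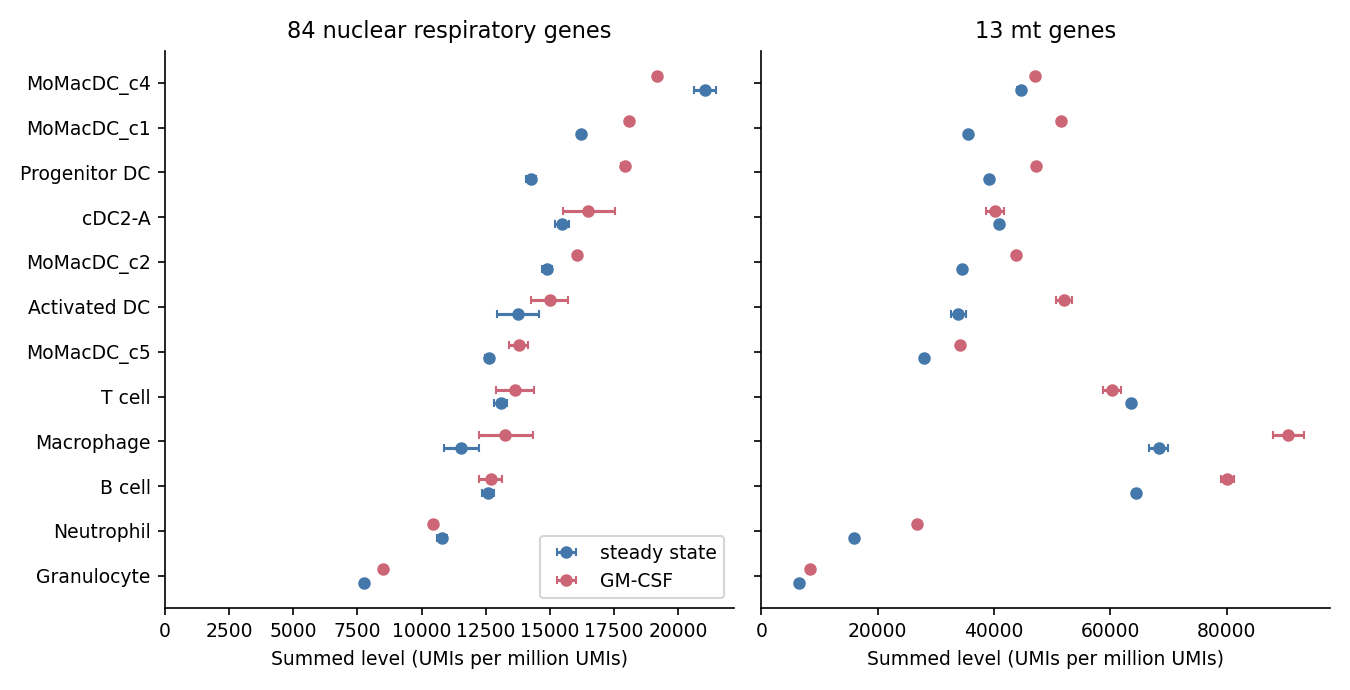
Summed level of the 84 nuclear genes (left) and the 13 mt genes (right) in UMIs per 1000000 UMIs, for the 12 deposited cell types in steady state (blue) and after GM-CSF (red). Bars are exact 95% Poisson intervals of the summed counts, and both sums are lowest in granulocytes while the highest nuclear and the highest mt sums fall in different types.

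The low sum of granulocytes was not shared by every member. Among the 76 members with over 500 UMIs and the 10 cell types of most cells, 58 were lowest in granulocytes in steady state and 48 after GM-CSF. The same count was not made over all genes, so it does not set the members apart from other genes. Cytosolic ribosomal protein genes were also lowest in granulocytes, at 34684 CPM in steady state and 40148 CPM after GM-CSF. Some members stood in granulocytes near their level in MoMacDC_c1. Cox8a, a small subunit of complex IV, was at 534.7 CPM in steady-state granulocytes and 508.7 CPM in steady-state MoMacDC_c1, and at 517.6 and 569.6 CPM after GM-CSF. Ndufa7 of complex I was at 184.8 against 180.8 CPM, and 156.6 against 151.6 CPM. Atp5l, subunit g of ATP synthase, was at 513.0 against 571.3 CPM, and 433.1 against 454.0 CPM. Others were nearly absent from granulocytes. Ndufa5 had 4 UMIs in each library's granulocytes (1.1 and 1.7 CPM) against 42.1 and 46.0 CPM in MoMacDC_c1, and Ndufc2 stood at 7.3 and 11.6 CPM against 175.2 and 230.9 CPM.

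To see how the respiratory transcripts differ between the cells deposited as neutrophils, with cycling markers at 886 and 915 CPM in steady state and after GM-CSF, and those deposited as granulocytes, at 15 and 20 CPM, both were compared within a library. After GM-CSF the sum of the 84 genes was 1.23-fold (1.21 to 1.25) higher in neutrophils and that of the mt genes 3.21-fold (3.17 to 3.26) higher, so the ratio of nuclear to mt UMIs was 0.382 times (0.374 to 0.391) that of granulocytes. Of 74 members compared, 34 were at least 1.5-fold higher in neutrophils, where the background was 19.4% of all 5547 genes, and 5 were at least 1.5-fold lower, where the background was 43.0%. The median ratio was 1.29 over the members and 0.749 over all genes. The complexes did not move together. Complex I was 1.35-fold (1.31 to 1.39), complex III 1.31-fold (1.24 to 1.39) and complex V 1.33-fold (1.29 to 1.37) higher, complex IV was 1.06-fold (1.03 to 1.09) higher, and complex II was lower at 0.711 (0.640 to 0.791).

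The largest differences among the members compared were in accessory subunits of complex I. Ndufa5 was at 1.1 and 1.7 CPM in granulocytes and 28.4 and 20.7 CPM in neutrophils, in steady state and after GM-CSF, and its ratio after GM-CSF was 12.5 (4.72 to 46.6), on 4 granulocyte UMIs. Ndufc2 was at 7.3 and 11.6 CPM in granulocytes and 67.8 and 66.5 CPM in neutrophils. Ndufv3, a small subunit of the NADH-binding module, was at 26.7 and 21.1 CPM against 120.0 and 105.1 CPM. Ndufa11, needed for membrane arm assembly, was at 4.9 and 18.6 CPM against 56.8 and 71.3 CPM. For these 4 genes the neutrophil value of either library lay above the granulocyte value of both.

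In complex III, Uqcrb, a subunit at the ubiquinone site, was at 20.1 and 39.4 CPM in granulocytes and 143.9 and 131.7 CPM in neutrophils. In complex V, Atp5o, the stalk subunit OSCP, was at 25.3 and 45.2 CPM against 121.0 and 139.2 CPM, and Atp5g2, a gene of the rotor ring subunit c, had a ratio of 3.03 (2.49 to 3.71) after GM-CSF. The genes lower in neutrophils were Sdha, the flavoprotein that oxidizes succinate, with 84.4 and 100.3 CPM in granulocytes and 47.7 and 54.1 CPM in neutrophils, and Ndufa7, Ndufs7, Atp5l and Ndufb9, whose ratios after GM-CSF were 0.552 (0.480 to 0.636), 0.612 (0.510 to 0.734), 0.620 (0.572 to 0.673) and 0.664 (0.605 to 0.729). Cox8a (0.687, 0.638 to 0.739) and Sdhd (0.694, 0.565 to 0.854) fell just short of the limit, Ndufb9 was just past it, and Cox4i1, the regulatory subunit that binds ATP, differed by less than its counting error (0.996, 0.938 to 1.06).

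All 12 mt genes compared were at least 1.5-fold higher in neutrophils after GM-CSF, from 2.28-fold (2.22 to 2.34) for mt-Co1, the catalytic subunit of cytochrome oxidase, to 4.92-fold (4.36 to 5.57) for mt-Nd1, a membrane subunit of complex I. mt-Nd6, encoded on the other strand, had too few UMIs to be compared.

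The steady-state library, whose cells were not used in that comparison, gave a sum ratio of 1.39 (1.36 to 1.42) for the nuclear genes and 2.45 (2.4 to 2.5) for the mt genes. There, 34 of 66 members were at least 1.5-fold higher (17.4% of 4375 genes) and 4 lower (45.1%). Over the 66 members compared in both libraries the log2 ratios had a Pearson correlation of 0.910 and a Spearman correlation of 0.877 across genes, which share their cell type labels, the dominance of a few transcripts in neutrophils and the capture of each transcript. Of 29 members higher in neutrophils after GM-CSF, 27 were at least 1.5-fold higher in steady state, and of 5 lower, 3 were at least 1.5-fold lower and all 5 were below 1. Ndufa12 parted from the rest, with a ratio of 0.593 (0.382 to 0.890) in the steady-state library but 1.60 (1.12 to 2.34) in the other, and 43.3 and 16.6 CPM in granulocytes.

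**Figure D2:**
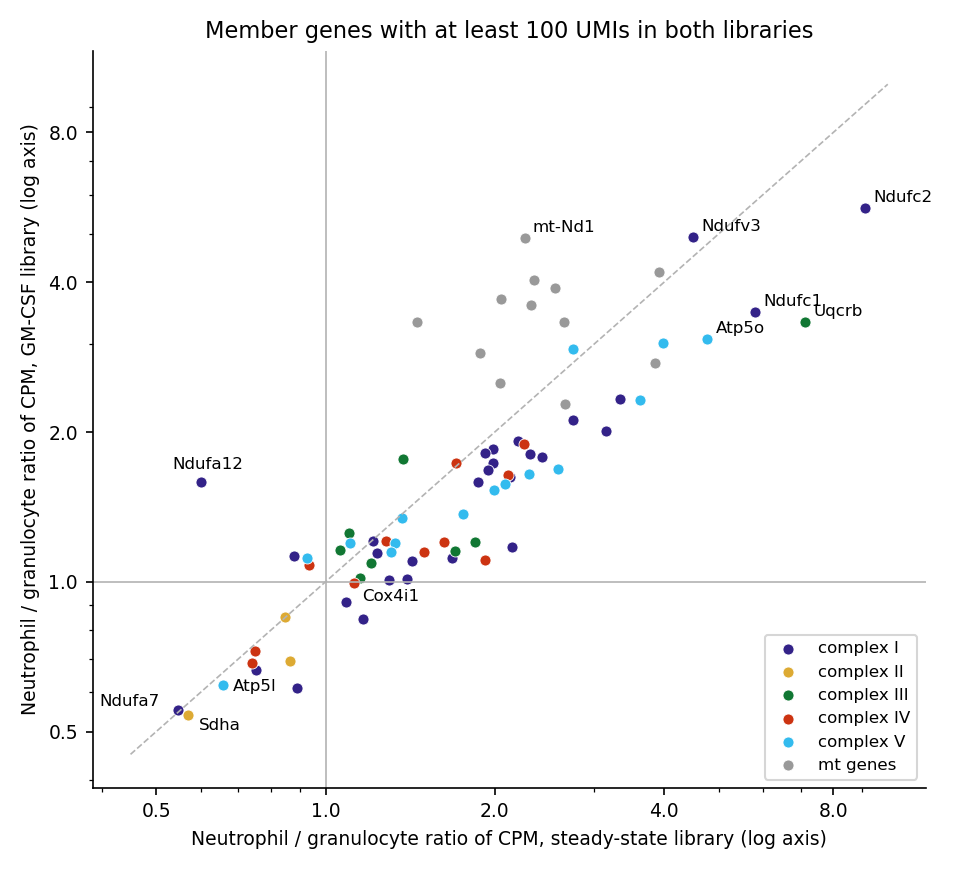
Ratio of CPM in neutrophils to that in granulocytes for each member with at least 100 UMIs in each library, in steady state (horizontal, log axis) and after GM-CSF (vertical, log axis), by complex, with the mt genes in grey. Ndufc2, Ndufv3, Uqcrb and Atp5o lie high in both libraries, Sdha and Ndufa7 low in both, and most mt genes lie above the dashed line of equal ratios.

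In neutrophils few genes held many of the UMIs. The 5 highest genes (S100a9, S100a8, Camp, Ngp and Tmsb4x) took 35% of neutrophil UMIs in steady state and 28.2% after GM-CSF, against 18.1 and 18.4% for the 5 highest genes of granulocytes. With the median ratio over genes as the scale in place of the total, the sum ratio after GM-CSF was 1.64 and the count was 52 higher and 0 lower, where the background of all genes moved to 29.2% higher and 26.1% lower. With each cell weighted equally the ratio was 1.05, and with 1000 UMIs drawn from each cell it was 1.04, after leaving out 496 of 1791 granulocytes and 13 of 893 neutrophils below that depth. With equal weight, 18 of the 34 higher members stayed at least 1.5-fold higher and all 5 lower members stayed lower, with a background of 17.1% higher and 43.1% lower. Ndufa5 (7.09), Ndufc2 (4.26), Ndufv3 (4.4), Ndufa11 (3.83), Uqcrb (2.36) and Atp5o (2.19) were among the former.

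The nuclear sum also differed with depth within the neutrophils. Neutrophils of each library were put into 4 equal bins by UMIs per cell. In steady state the nuclear sum was 7164 CPM (6687 to 7667) in the bin with the fewest UMIs, 8349 and 9696 CPM in the middle bins and 13263 CPM (12946 to 13585) in the bin with the most. After GM-CSF it was 7763, 7757, 8833 and 12768 CPM (12625 to 12912). The mt genes went from 16386 to 35631 CPM after GM-CSF, and the cycling markers from 87.4 to 1767 CPM, while Cxcr2, the chemokine receptor of mature neutrophils, went from 581 to 61.8 CPM. The neutrophils with the fewest UMIs thus lay below granulocytes of the same library in the nuclear sum, and those with the most lay above. In granulocytes the nuclear sum was not higher in deeper cells, at 8704 CPM in the lowest and 7967 CPM in the deepest bin after GM-CSF, although their mt sum was 5478 and 11381 CPM. Ndufa5 followed the neutrophil gradient (3.8, 9.6, 10.9 and 33.2 CPM after GM-CSF) and so did Ndufc2 (20.9, 25.1, 50.3 and 99.1 CPM), whereas Sdha did not (62.7, 46.6, 42.8 and 60.5 CPM). The part of depth, maturity and division in these values was not tested.

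**Figure D3:**
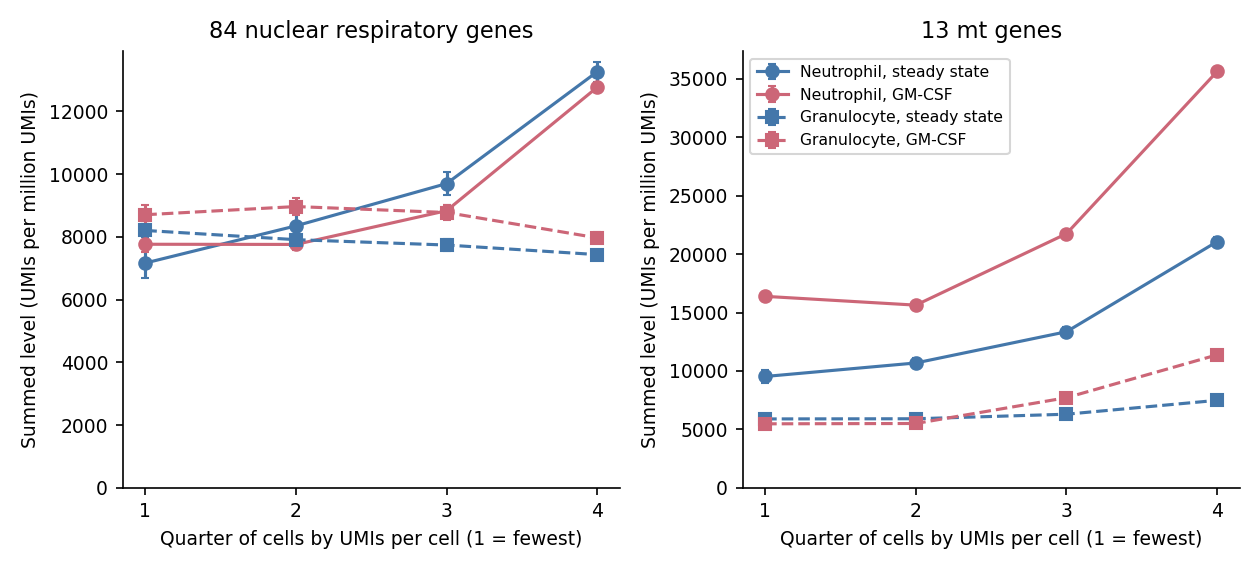
Summed level of the 84 nuclear genes (left) and 13 mt genes (right), in UMIs per 1000000 UMIs with exact 95% Poisson intervals, in 4 equal bins of the neutrophils (circles) and granulocytes (squares) of each library, ordered by UMIs per cell. The nuclear sum of neutrophils is 12768 CPM after GM-CSF in the deepest bin and near that of granulocytes in the shallower bins.

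Other gene lists around the respiratory chain were set against the same background, 19.4% of all genes higher in neutrophils, 43.0% lower and a median ratio of 0.749. Of the assembly factors of the complexes, 14 of 45 could be compared after GM-CSF, with 1 higher, 6 lower and a median ratio of 0.720, near the values of all genes for the lower share and the median. The citric acid cycle enzymes had 0 higher and 1 lower of 10 and a median of 1.0, and the regulators of mitochondrial biogenesis 0 higher and 3 lower of 5. Mitochondrial ribosomal proteins had 18 higher and 8 lower of 46 (median 1.13), the mitochondrial carriers and import genes 4 higher and 1 lower of 12 (median 1.19), cytosolic ribosomal proteins 66 higher and 2 lower of 89 (median 2.04) and glycolytic enzymes 8 higher and 1 lower of 13 (median 1.71). Of the 5 respiratory genes outside the name rule (Ndufab1, Cyc1, Cycs, Usmg5 and Atpif1), 3 were higher and 0 lower (median 2.11), and of the genes that maintain and transcribe mitochondrial DNA, 2 of 3 compared were higher.

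NRF1, GABP and YY1 are known regulators of nuclear respiratory genes, and the members' promoters were searched for the letters they bind. Promoters of 300 bases (250 before to 50 after the start, RefSeq, GRCm38.p6) were found by symbol for 66 of the 84 members, 71 promoters in all. The NRF1-like motif (the letters GCGCA, any 1 base, then GCGC; all motifs were sought on both strands) was in 25.4% of the member promoters and in 4.6% of all 32851 promoters. The ETS motif CCGGAAG, the core bound by GABP (NRF2), was in 22.5 and 8.86%, and the YY1-like motif AAGATGGC in 12.7 and 2.75%. The YY1-like motif can share its first letters, AAG, with the end of the ETS motif. At least 1 of the 3 was in 52.1% of member promoters and 14.7% of all promoters. For comparison, CCAAT was in 42.3 and 37.4% and TATAAA in 11.3 and 13.6%. Of the 32 members with a promoter that were higher in neutrophils, 8 had the NRF1-like, 4 the ETS and 6 the YY1-like motif. Among the other 30 compared, 9, 12 and 3 had them.

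Among the members compared after GM-CSF (at least 100 UMIs), Ndufa5 had the highest neutrophil to granulocyte ratio and Sdha the lowest. A promoter of each, and that of Ndufs7, another of the lower members, are printed to show where these letters stand. NRF1-like, ETS and YY1-like matches are in capitals, and CCAAT and TATAAA matches are left in lower case. Ndufa5 has 2 promoters in the set, and the 1 printed (chr6:24527641-24527940, minus strand) has 1 NRF1-like match. Sdha (chr13:74350191-74350490, minus strand) has 3 NRF1-like matches, and Ndufs7 (chr10:80249199-80249498, plus strand) has 1 YY1-like match, after the start.
Ndufa5: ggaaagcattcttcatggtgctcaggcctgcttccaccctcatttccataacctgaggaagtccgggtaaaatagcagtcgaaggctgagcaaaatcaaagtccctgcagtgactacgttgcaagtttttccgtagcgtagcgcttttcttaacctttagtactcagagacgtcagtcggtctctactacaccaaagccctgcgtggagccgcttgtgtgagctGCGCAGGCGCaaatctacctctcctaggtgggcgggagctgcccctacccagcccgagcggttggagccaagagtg
Sdha: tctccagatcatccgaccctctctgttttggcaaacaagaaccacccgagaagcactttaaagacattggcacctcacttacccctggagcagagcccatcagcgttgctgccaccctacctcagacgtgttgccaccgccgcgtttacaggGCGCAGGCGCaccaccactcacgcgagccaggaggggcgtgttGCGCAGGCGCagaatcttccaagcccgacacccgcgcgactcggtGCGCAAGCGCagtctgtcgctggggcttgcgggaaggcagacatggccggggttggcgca
Ndufs7: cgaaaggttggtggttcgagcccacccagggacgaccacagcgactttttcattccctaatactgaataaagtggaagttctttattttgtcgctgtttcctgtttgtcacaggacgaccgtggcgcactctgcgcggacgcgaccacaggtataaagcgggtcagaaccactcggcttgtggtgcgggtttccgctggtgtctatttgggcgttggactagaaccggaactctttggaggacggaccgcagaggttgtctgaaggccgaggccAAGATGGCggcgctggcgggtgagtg
The NRF1-like motif was thus present in a printed promoter at each end of that ranking, but every promoter printed is one with a match. Ndufc2 and Ndufv3, among the higher members, had no NRF1-like, ETS or YY1-like match. Neither had Ndufa7, whose ratio was lower than that of Ndufs7. These matches are descriptions of letters in a window and not binding sites.

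The next question was how the respiratory genes differed between the libraries. In granulocytes the nuclear sum was 1.09-fold (1.07 to 1.11) higher after GM-CSF and the mt sum 1.28-fold (1.26 to 1.30). Of 65 members compared, 16 were at least 1.5-fold higher, with 16.6% of 4928 genes as background, and 5 at least 1.5-fold lower, with 8.69%. The median ratio was 1.14 over members and 1.05 over all genes. In P-I cells (187 after GM-CSF, 139 in steady state) the nuclear sum was 18346 against 16681 CPM, 1.10-fold (1.08 to 1.12) higher, and the mt sum 53643 against 36825 CPM, 1.46-fold (1.44 to 1.47) higher. Here 11 of 74 members were at least 1.5-fold higher, with a background of 11.1% of 3714 genes, and 4 at least 1.5-fold lower, with a background of 18.7%. The P-I cells of the libraries also differed in marker genes. Cycling markers were at 68.6 CPM in steady state and 1005 CPM after GM-CSF, classical monocyte markers at 4459 and 1473 CPM and dendritic cell markers at 722 and 2868 CPM, and the part of these in the ratio was not tested. Among G1 cells alone the nuclear ratio of P-I was 1.11. The share of higher members was somewhat above the background in both cell types, and that of lower members near it in granulocytes and under it in P-I cells. In granulocytes the ends of the range were Ndufb5 (2.12, 1.65 to 2.73) and Ndufa12 (0.383, 0.264 to 0.545), both of complex I. In P-I cells they were Atp5g2 (1.78, 1.57 to 2.03), from 315.7 to 562.2 CPM, and Ndufa3 (0.448, 0.347 to 0.577). The mt genes of P-I differed among themselves, from 0.631 (0.530 to 0.750) for mt-Nd4l to 1.70 (1.65 to 1.75) for mt-Co3. The ratio of nuclear to mt UMIs was 0.755 times (0.738 to 0.772) that of steady state in P-I cells and 0.854 times (0.832 to 0.877) in granulocytes.

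Set side by side over the 12 cell types, the interval of the ratio of nuclear sums lay above 1 in 7, below 1 in 2 and across 1 in 3. Among the 7 were 2 types of few cells, Macrophage (25 in steady state and 22 after GM-CSF) and Activated DC (8 and 20). Progenitor DC had the highest ratio, 1.26 (1.24 to 1.28), from 14263 to 17923 CPM. In the same cells the cycling markers went from 768 to 1942 CPM and the granulocyte and neutrophil markers from 9238 to 2102 CPM, and their part in the ratio was not tested. MoMacDC_c1 had 1.12 (1.11 to 1.12), MoMacDC_c5 1.09 (1.06 to 1.12) and MoMacDC_c2 1.08 (1.06 to 1.09). B cells had 1.01 (0.970 to 1.05). The 2 types below 1 were neutrophils, at 0.965 (0.946 to 0.985), and MoMacDC_c4, at 0.910 (0.891 to 0.930), of which the 43 steady-state cells are those with NK markers. Over all genes the median ratio was 0.975 in neutrophils and 0.921 in MoMacDC_c4, so these 2 sums lay near the shift of all genes. The mt sum was 1.68-fold (1.65 to 1.70) higher after GM-CSF in the same neutrophils, the largest of the 12 ratios. The tally of 7, 2 and 3 types was not scaled by the shift of all genes. Over the 12 types the median ratio of all genes ran from 0.857 in B cells to 1.16 in Activated DC. In Activated DC, counted among the 7, the nuclear sum went from 13742 to 14989 CPM. B cells, counted as across 1, had 1.01 beside their median of 0.857.

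By complex, complex III had the narrowest range of complexes I, III, IV and V, between 0.907 in MoMacDC_c4 and 1.02 in Progenitor DC among the 10 types with most cells. Complex V lay between 0.921 and 1.33, complex IV between 0.954 and 1.22, and complex I between 0.852 and 1.30. For each of these complexes the lowest ratio was in MoMacDC_c4 and the highest in Progenitor DC. In both types the cells compared between libraries differ in marker genes. The level of cytosolic ribosomal protein genes moved with library as well, from 163763 to 210597 CPM in MoMacDC_c1, and from 48800 to 77600 CPM in neutrophils, and its part in these ratios was not tested.

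**Figure D4:**
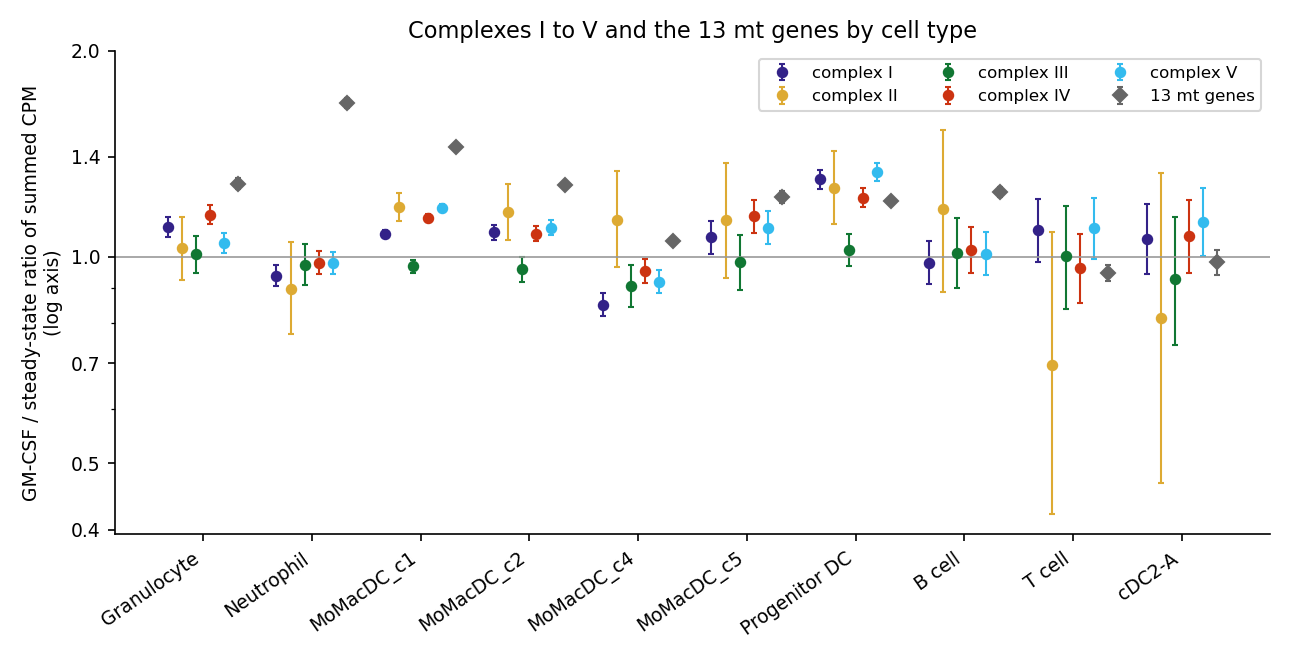
Ratio of summed CPM after GM-CSF to steady state (log axis) for complexes I to V and for the 13 mt genes (grey diamonds) in 10 cell types, with exact 95% intervals. The mt genes lie above the complexes in granulocytes, neutrophils, MoMacDC_c1, c2 and c5 and B cells, complex III lies near 1 throughout, and complex II has wide intervals in the types with few cells.

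Behind the modest sums, single members differed between libraries in the same direction in many cell types. The cell types come from the same pair of libraries and are not independent. Of 54 members compared in at least 8 of 10 types, 9 were above 1 in every type compared, where the background was 7.58% of 1676 genes, and 5 below 1 in every type, where it was 12.4%. The share above 1 was thus higher among the members than among all genes, and the share below 1 was not. Cox7a2l, a paralog of Cox7a2, was 1.28- to 2.61-fold higher after GM-CSF in the 10 types. Its 2.61 was in MoMacDC_c4, whose steady-state cells carry NK markers, and its next highest ratio was 1.95 in granulocytes. Ndufb5 of complex I was 1.26- to 2.12-fold higher and Atp5d, the delta subunit of ATP synthase, 1.15- to 2.12-fold. Cox4i1 had ratios of 1.01 to 1.47. On the other side stood Ndufa3, a small complex I subunit, with ratios of 0.16 to 0.73 in 9 types, Atp5e, the epsilon subunit, with 0.53 to 0.99 in 10 types, and Ndufa2, Cox6a1 and Atp5l with highest ratios of 0.88, 0.96 and 0.93. The 0.16 of Ndufa3 rested on 1 UMI in the 20 cDC2-A cells after GM-CSF, and its next lowest ratio was 0.33 in B cells. In P-I cells Ndufa3 was at 158.3 CPM in steady state and 71.0 CPM after GM-CSF, and Cox7a2l at 469.5 and 758.6 CPM.

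The ratios also differed with transcript length. Of the 84 members, 80 have a principal coding transcript in the GENCODE annotation (GRCm38). In MoMacDC_c1 the median ratio was 0.738 over the 5 members under 500 nucleotides, 0.965 over 23 members of 500 to 700, 1.16 over 16 of 700 to 1000, 1.31 over 21 of 1000 to 2000 and 1.26 over 7 longer ones. Across members of a cell type, the Spearman correlation of length and ratio ran from 0.33 in cDC2-A to 0.58 in T cells. Over all genes of MoMacDC_c1 the medians were 0.748, 1.0, 1.18, 1.09 and 0.915 in the same length classes, so short transcripts had low ratios outside the respiratory genes too, and the longest did not have high ones. Ndufc1 and Ndufb2 stood apart, with annotated transcripts of 1249 and 4371 nucleotides and median ratios of 0.64 and 0.67. Over all genes the Spearman correlation ran from -0.37 to -0.12. The part of transcript length in the ratios of the complexes was not tested, and GM-CSF and library cannot be told apart.

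**Figure D5:**
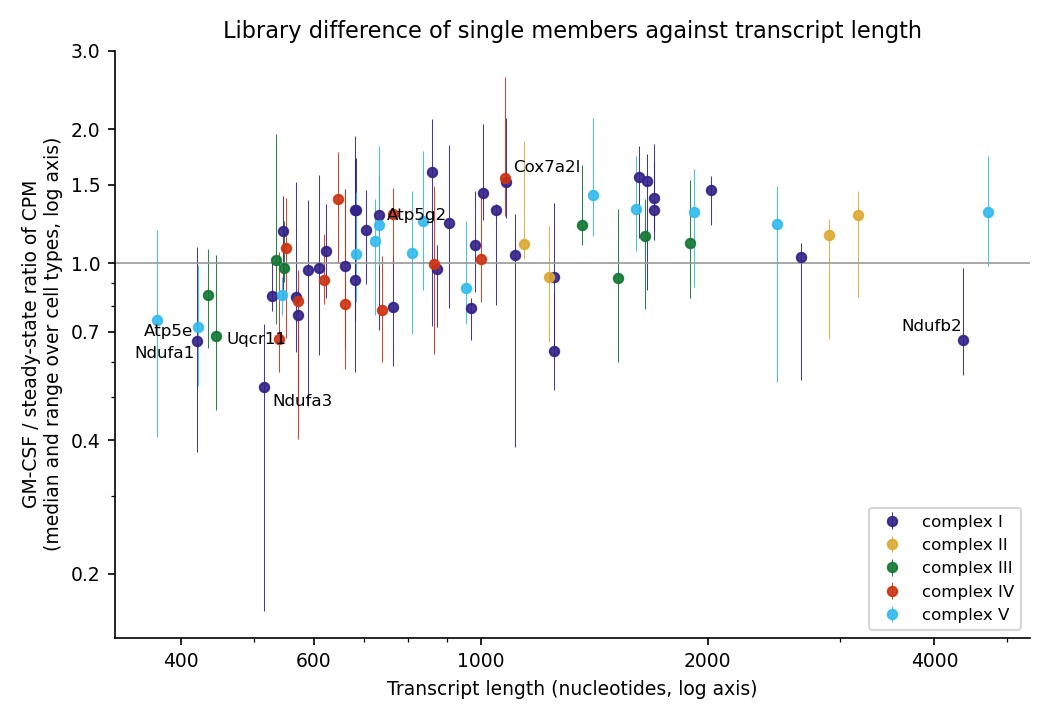
Ratio of CPM after GM-CSF to steady state for the 71 members compared in at least 6 cell types and with an annotated length (points, median over cell types; lines, lowest to highest cell type), against transcript length in nucleotides, both on log axes. Members under 500 nucleotides such as Atp5e, Ndufa1 and Uqcr11 have medians below 1, and Cox7a2l has one above.

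Within the GM-CSF-treated library the CD115hi subsets, which share 1 library, were compared to follow respiratory genes from classical monocytes (P-I) to CD301b+ cells (P-IV). The nuclear sum was 18346 CPM (18122 to 18573) in 187 P-I cells, 16829 CPM (16534 to 17127) in 126 P-III cells and 17591 CPM (17418 to 17765) in 313 P-IV cells. The mt sum was 53643, 45586 and 43522 CPM. Cycling markers moved with the nuclear sum, at 1005, 496 and 787 CPM, and erythroid markers stood at 1.4, 0 and 841 CPM. Their part in these ratios was not tested. P-III against P-I gave 0.917 (0.898 to 0.937) for the nuclear and 0.850 (0.839 to 0.861) for the mt sum, with complex I at 0.877 (0.842 to 0.913) and complex II at 1.0 (0.874 to 1.15). Among G1 cells alone the nuclear ratio was 0.951. Of 71 members, 0 were at least 1.5-fold higher, against 5.02% of 3189 genes, and 2 at least 1.5-fold lower, Sdhc and Ndufv3, against 5.96%. P-IV against P-III gave 1.05 (1.02 to 1.07) for the nuclear and 0.955 (0.943 to 0.967) for the mt sum, and 1.02 for the nuclear sum among G1 cells. Here 5 of 75 members were at least 1.5-fold higher, against 4.41% of 4146 genes, and 0 lower, against 3.79%.

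All 5 members higher in P-IV than in P-III belong to complex I, which holds 37 of the 84 members. Ndufa6, of the matrix arm, was at 255.3 CPM in P-I, 274.5 CPM in P-III and 415.4 CPM in P-IV, with a P-IV to P-III ratio of 1.51 (1.30 to 1.77). The others, Ndufb2, Ndufa12, Ndufa5 and Ndufv3, had 17 to 32 UMIs in P-III and ratios of 1.56 to 1.66 with wide intervals, that of Ndufb2 from 0.981 to 2.99. Sdha went the other way, at 120.5, 159.6 and 123.2 CPM in P-I, P-III and P-IV. The differences between subsets were thus small, and the counts of members past the limit were near or below the background. Of the members higher in P-IV, 1 was left with at least 500 UMIs and 0 at 2-fold. In steady state P-II, P-III and P-IV held 7 to 12 cells each and were not compared.

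The bundle clusters 7 and 8, in which the cycling markers stood at 2401 and 3252 CPM after GM-CSF, were compared with clusters 0, 1, 3, 5 and 10 of the same library, at 49.2 to 169 CPM. The nuclear sum was 19424 against 16525 CPM, 1.18-fold (1.17 to 1.18) higher, and the mt sum 49184 against 46286 CPM, 1.06-fold (1.06 to 1.07). Complex V was 1.22-fold (1.20 to 1.24), complex I 1.19-fold (1.18 to 1.21), complex IV 1.15-fold (1.14 to 1.17), complex III 1.08-fold (1.05 to 1.10) and complex II 1.08-fold (1.03 to 1.13) higher. Of 76 members, 66 lay above 1, but 3 passed 1.5-fold, against 12.1% of 8853 genes, and 1 lay 1.5-fold lower, against 12.0%. The median ratio was 1.19 over members and 0.966 over all genes.

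Ndufb11 (1.53, 1.45 to 1.61), Atp5k (1.53, 1.4 to 1.66), which helps ATP synthase to form dimers, and Atp5o (1.52, 1.43 to 1.61) were the 3 higher members, and Ndufa6 was the lower one (0.658, 0.622 to 0.697), at 240.4 CPM against 365.0 CPM. Mitochondrial ribosomal proteins had a median ratio of 1.15 (7 higher and 0 lower of 75), cytosolic ribosomal proteins 0.976 (0 higher and 2 lower of 92), and the citric acid cycle 1.06 (1 higher and 0 lower of 14). By deposited phase, cells of clusters 7 and 8 had a nuclear sum of 19918 CPM in G1 (50 cells), 20858 CPM in S (152 cells) and 18969 CPM in G2M (520 cells), and those of the other clusters 16522, 16481 and 17849 CPM. The nuclear sum was thus higher in clusters 7 and 8 in each phase. Among G1 cells alone the mt sum was higher too (61931 against 46322 CPM), which turned the fold of the nuclear to mt ratio from 1.11 (1.10 to 1.12) over all cells to 0.902. Cells of clusters 7 and 8 were also deeper, with a median of 9160 UMIs in G2M against 1391 in the 37 G2M cells of the others.

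Over the 12 bundle clusters with at least 100 cells after GM-CSF, the nuclear sum ran from 13940 CPM in cluster 4 to 20589 CPM in cluster 6, and in steady state from 12867 CPM in cluster 4 to 17233 CPM in cluster 6, over 6 clusters. Clusters 4 and 6 were thus at the ends of the order in both libraries. Cluster 10, of cells with few UMIs (median 1739.5 after GM-CSF), had the highest mt sum of the 17 clusters in steady state, with 67323 CPM in 34 cells against 11658 CPM of nuclear genes. After GM-CSF its mt sum was 54253 CPM in 250 cells, below those of clusters 5 (57717 CPM) and 6 (54844 CPM).

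Several subunits have paralogs for particular tissues, and most UMIs came from the common forms. Subunit c of ATP synthase is made from 3 genes that differ in their import sequence. Atp5g2 gave 51.0% of their UMIs in steady state and 55.6% after GM-CSF, Atp5g1 21.8 and 20.8% and Atp5g3 27.2 and 23.6%. In steady-state granulocytes Atp5g3 gave 45.4% and Atp5g2 37.2%, on 138 and 113 UMIs, and after GM-CSF Atp5g2 gave 44.4% and Atp5g3 33.1%. Cox7a2 and Cox7a2l divided their UMIs in different ways, with Cox7a2l at 34.1% of the group in steady-state neutrophils and 60.6% after GM-CSF, and 67.9 and 80.0% in MoMacDC_c1. Cox4i1, Cox6a1, Cox7b, Cox8a and Ndufa4 gave nearly all UMIs of their groups, and Ndufa4l2, a hypoxia-induced paralog, had 1 UMI.

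Cox6b2, known as the testis form of a complex IV subunit (chr7:4751792-4753094, minus strand, GRCm38), was the exception. It was at 10.0 CPM (8.5 to 11.8) in the bundle in steady state and 27.2 CPM (25.3 to 29.3) after GM-CSF, and reached 34.8 CPM in MoMacDC_c2 after GM-CSF, where it gave 10.5% of the UMIs of Cox6b1 and Cox6b2. In neutrophils it was at 11 CPM (5.7 to 19.2) and 12 CPM (9.1 to 15.4). In granulocytes, 1 UMI was found in each library (0.27 and 0.41 CPM, with upper limits of 1.5 and 2.3 CPM), and B cells, T cells and cDC2-A together had 4 and 2 UMIs. Cox6b2 was 2.35-fold higher after GM-CSF in MoMacDC_c1 and 1.77-fold in MoMacDC_c2, the largest median ratio of the members compared, though over 3 types. The libraries filled the clusters differently, with 14, 49, 88 and 31 steady-state cells in clusters 0, 1, 3 and 7 against 668, 577, 512 and 370 after GM-CSF. The part of this in the ratio was not tested. Clusters 2, 4, 5, 6 and 9 had at least 100 cells in both libraries. There Cox6b2 was at 11 and 15.6, 2.6 and 7.6, 9.7 and 12.9, 13.2 and 16.2, and 15 and 22.2 CPM, in that order. In each of them the value after GM-CSF was the higher one, and the intervals of the libraries overlapped. On so few UMIs, overlap does not show that the libraries were equal within a cluster. The intervals also overlapped in cluster 0 (37.5 and 33.5 CPM) and cluster 3 (23.4 and 36.2 CPM), but not in clusters 1, 7 and 11. Cluster 1 had 5.8 and 31.0 CPM, on 2 and 107 UMIs. Cluster 11, of 157 and 77 cells, had 5.5 and 31.0 CPM, on 7 and 17 UMIs. Cluster 7, whose steady-state cells carry NK markers, had 0 and 33.3 CPM, on 0 and 103 UMIs. Among the clusters of at least 100 cells after GM-CSF, Cox6b2 was highest in clusters 3, 0, 7 and 1, at 36.2, 33.5, 33.3 and 31.0 CPM, and those 4 intervals overlap.

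Cox4i2, the lung and hypoxia form of subunit IV, was found in the GM-CSF-treated library alone, with 30 UMIs in 21 cells, all in the bundle, against 0 in steady state, where 3 counts would stand at 0.134 CPM. Of the 30 UMIs, 16 were in cluster 8, 8 in cluster 6, 5 in cluster 7 and 1 in cluster 2. Clusters 7 and 8 held 370 and 352 cells after GM-CSF but 31 and 28 in steady state. Those steady-state cells carry NK markers, so few matching cells stand behind the 0. Cox7a1, the muscle form, had 8 UMIs in steady state and 31 after GM-CSF, at most 1 in any cell, and Cox6a2 had 11 and 1.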

How the data were processed

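Raw counts (UMIs per gene and cell) deposited by the authors were used as they stand. Per the labels and the study's methods, the authors made them with Cell Ranger 3.0.2 on mm10 from Chromium 3' v3 libraries, filtered on 200 and 5000 genes per cell and on 15% mitochondrial UMIs, and assigned clusters, cell types, subsets and phases in Seurat 3.6.0. The mitochondrial percent deposited by the authors equalled that of the 13 mt genes. Phases are deposited for bundle cells. Sums of counts per group gave exact Poisson intervals for sums and exact binomial (Clopper-Pearson) intervals for ratios, and the interval of a nuclear to mt fold came from the reciprocal counts. Intervals and the 1.5-fold rule were checked on simulated Poisson counts, the model on which the intervals rest. The simulation held no spread between cells, and its planted folds were well past 1.5, so it does not cover ratios near that limit. Cells are not replicates. Members and lists were chosen with earlier results of these data known. Lists are reported as counts and medians. Named genes were the 10 highest and 10 lowest ratios per comparison (a selection is printed), the highest member of each complex, paralogs and the mt genes. Length used the GENCODE principal transcript. Doublets (135 of 4827 and 185 of 6804 cells, left out only as an alternative) were called with Scrublet in scanpy 1.11.5. Python 3.11.15 and SciPy 1.17.1 were used. Antibody counts were not used here.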

Additional observations from a re-analysis of the deposited data

Results flagged for a closer look

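In 7 of the 12 cell types the summed nuclear respiratory level was higher after GM-CSF by more than counting error, but it was lower in 2, and the difference between cell types was not tested. The 7 include Macrophage (25 and 22 cells in steady state and after GM-CSF) and Activated DC (8 and 20 cells). In neutrophils the ratio was 0.965 (0.946 to 0.985), and 0.976 with each cell weighted equally, while the mt sum was 1.68-fold higher. In MoMacDC_c4 it was 0.910 (0.891 to 0.930), with 19161 CPM in 595 cells after GM-CSF and 21051 CPM in 43 cells in steady state. NK cell markers stood at 11630 CPM in those 43 cells and at 0.87 CPM in the 595. Over all genes the median ratio of the same comparisons was 0.975 in neutrophils and 0.921 in MoMacDC_c4. Over the 12 types it ran from 0.857 in B cells to 1.16 in Activated DC, and the counts of 7 and 2 types were not scaled by it. With the median ratio over genes as the scale, the nuclear ratios were 0.983 and 0.968.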

How the results depend on the processing

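Of 122 alternative values, 74 moved by less than counting error or kept a count within 1.5 times, 47 moved and 1 changed direction. For neutrophils against granulocytes the nuclear ratio was 1.25 with mt genes left out of the total, 1.31 without mt and ribosomal genes, 1.64 scaled by the median ratio, 1.05 as a mean over cells and 1.04 thinned to 1000 UMIs. The nuclear to mt fold was 0.371 with an mt limit of 10%. At a 2-fold limit 15 members were higher and 0 lower, with at least 500 UMIs 21 were higher, and scaled by the median ratio 52 were higher and 0 lower. For granulocytes after GM-CSF the ratio was 1.04 scaled by the median, the nuclear to mt fold 0.772 with the 10% limit, and the counts 2 higher and 2 lower at 2-fold and 4 and 3 with at least 500 UMIs. For P-I cells after GM-CSF the ratio was 1.19 without mt and ribosomal genes, 1.19 scaled by the median and 1.12 thinned, the nuclear to mt fold 0.786 thinned and 0.722 in G1 cells, and the counts 0 higher and 2 lower at 2-fold, 6 and 1 with at least 500 UMIs, and 2 lower scaled by the median. For P-III against P-I, G1 cells gave 0.951 and a nuclear to mt fold of 1.11, at least 1 UMI gave 2 higher and 4 lower, and 0 were lower at 2-fold or with at least 500 UMIs. For P-IV against P-III the ratio was 1.08 thinned and 1.02 in G1 cells, with a nuclear to mt fold of 1.04 in G1 cells, and 0 were higher at 2-fold and 1 with at least 500 UMIs. For clusters 7 and 8 the ratio was 1.22 scaled by the median, 1.19 as a mean over cells, 1.19 thinned and 1.21 in G1 cells. Their nuclear to mt fold turned to 0.902 in G1 cells, and the cause was not tested. There, 0 were higher and 0 lower at 2-fold, 5 and 2 with at least 1 UMI, and 0 lower scaled by the median. Leaving out cells of barcodes found in both libraries, chosen after seeing the data, moved none of these values beyond counting error. The G1 setting was not run for neutrophils and granulocytes, which have no deposited phase. No paired analysis was possible because each condition is 1 library. With 1 library per condition, intervals cannot cover variation between mice, and small ratios near 1 are not separable from it.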
